A study of Mus musculus with 10 samples.

Results

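The Notch genes of sorted meningeal cells labelled as lymphatic endothelial cells (LECs) were taken from the deposited count table by their symbols. They are the receptors Notch1, Notch2 and Notch4, the ligands Dll1, Dll4, Jag1 and Jag2, and the target genes Hey1, Hey2 and Hes1. Each symbol matched 1 gene, which gave 10 of the 55401 genes in the table, measured in 10 replicates. The study asked how stress acts on the meningeal lymphatic vessels of female mice, and it sequenced RNA of LECs from the dura. All mice were C57BL/6 (C57BL/6J in the study's methods) females of 3 months, with 5 naive replicates and 5 replicates taken after subchronic variable stress (SCVS) of 6 days, in which foot shock, tail suspension and restraint alternated. Each replicate pooled cells from 3 to 4 animals. The tissue was digested with actinomycin D, which blocks transcription, and cells were sorted as CD45-, CD31+ and podoplanin+, which also limits what can be read from the levels of Pecam1 (CD31), Pdpn (podoplanin) and Ptprc (CD45).

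Notch is a pathway between neighbouring cells. A ligand of the Delta or Jagged family on 1 cell binds a Notch receptor on the next, the receptor is cut by an ADAM protease and then by gamma-secretase, and the freed intracellular part joins RBPJ and a Mastermind protein in the nucleus to switch on Hes and Hey genes, which encode transcriptional repressors. In endothelium the pathway is known for arterial identity and for the choice between tip and stalk cells of a sprout, where Dll4 activates Notch1 and Jag1 can oppose Dll4. In lymphatic endothelium Hey1 and Hey2 can repress Prox1, the regulator of lymphatic identity, and Dll4 and Notch1 take part in lymphatic growth and valve formation.

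Promoters of 8 of the 10 genes were found by symbol in the RefSeq promoter table (build GRCm38.p6), and Hes1 and Hey1 were not among them. Each promoter runs from 250 bases before the start of transcription to 50 bases after it. The core motif of RBPJ, GTGGGAA, was searched on both strands, where the other strand reads TTCCCAC. It was found in 1 of the 8 genes, Hey2, which has a single promoter. The 8 genes had 9 promoters, because Dll1 had more than 1. Of all 32851 promoters in the table, 2097 (6.38%) held the motif. The promoter of Hey2 (chr10:30842734-30843033, minus strand) is shown because it holds both forms of the motif, which are in capitals, with first bases at -207 and -4 from the start. The promoter of Jag1 (chr2:137116471-137116770, minus strand) is shown because Jag1 had the smallest p of the 10 genes, and it has no match. Both are written 5′ to 3′ in the direction of the gene.
Hey2: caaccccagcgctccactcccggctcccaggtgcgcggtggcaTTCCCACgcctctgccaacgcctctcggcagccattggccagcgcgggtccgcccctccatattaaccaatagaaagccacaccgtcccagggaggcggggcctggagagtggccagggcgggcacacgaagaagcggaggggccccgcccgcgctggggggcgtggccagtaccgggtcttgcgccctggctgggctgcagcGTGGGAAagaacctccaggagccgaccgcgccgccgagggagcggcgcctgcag
Jag1: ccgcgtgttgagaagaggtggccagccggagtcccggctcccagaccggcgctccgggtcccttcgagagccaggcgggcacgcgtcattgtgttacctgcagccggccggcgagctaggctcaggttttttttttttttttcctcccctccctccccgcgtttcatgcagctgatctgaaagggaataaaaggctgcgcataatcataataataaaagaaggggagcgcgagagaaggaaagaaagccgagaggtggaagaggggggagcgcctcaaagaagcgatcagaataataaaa

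Replicates held 9984743 to 14094155 counts in total, so that 3 counts, used as the lowest level taken as detected, equal 0.213 to 0.3005 CPM (the count divided by the total of its replicate, times 1000000). Of the 100 values of the Notch genes, 94 were above 3 counts, and 7 of the 10 genes were above 3 counts in all 10 replicates. Lymphatic endothelial markers summed to 74.4 to 2929 CPM in the naive replicates and 471 to 3243 CPM in the SCVS replicates, and in naive replicate 1 Prox1 and Pdpn had 0 counts and Lyve1 had 2 counts. Blood endothelial markers summed to 313 to 10273 CPM in naive and 5219 to 9324 CPM in SCVS. Per kilobase of the longest coding transcript, with lengths for 8 of 9 lymphatic and 8 of 8 blood markers, the blood endothelial sum was above the lymphatic one in 10 of 10 replicates, by 2.52 to 401 times. These sums go against the label of lymphatic endothelial cells, and how much of each Notch gene came from blood or lymphatic endothelium was not tested. In naive replicate 5 the endothelial genes Pecam1 and Cdh5 were at 2.27% and 1.22% of their medians over the other 9 replicates, and 7 of 8 pan-endothelial markers were below every other replicate. The log2 fold changes of the Notch genes are therefore given with and without naive replicate 5. In such bulk samples fewer cells of a type and less RNA per cell cannot be told apart.

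Naive replicate 5 also held the lowest values of 6 of the 10 Notch genes. The share of all genes that were lowest in naive replicate 5 was not counted, so the 6 of 10 cannot be set against it. Notch1 had 29 counts there against 344 to 1396 in the other replicates, or 3.59% of their median CPM. Notch4 had 4 counts, 0.705% of the median of the others, and Dll4 had 0 counts. Those are receptors and a ligand of endothelium, and Notch2 (11.6%), Jag1 (37.4%) and Jag2 (35.9%) were the other 3 genes below every other replicate. The targets were less low there. Hes1 was at 58.8% and Hey1 at 125% of the median of the others, both inside their range although Hes1 was the lowest of the naive values, and Hey2 was at 308%, above all of them. Naive replicate 5 thus had low receptors and low Dll4 next to levels of Hey1 and Hes1 inside the range of the other replicates. Other genes linked to Notch were mixed there. Of the 10 arterial endothelial genes listed as following Notch, 5 were below every other replicate, among them Efnb2, Gja4 and Sox17. Sox17 is also counted among the blood endothelial markers. In the same list Unc5b was at 251% of the median of the others, above all of them. Fbln5 was at 127%, inside their range. Heyl and Hes6 were at 148% and 254%, also inside the range. Nrarp, also a target, had 0 counts there, inside the range of the others. Blood endothelial markers were below every other replicate in 7 of 8 cases. In that replicate the mural marker Rgs5 was at 5057 CPM, and 2 of 8 mural markers were above 3 counts. The part of other cell types in these levels was not tested.

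**Figure D1:**
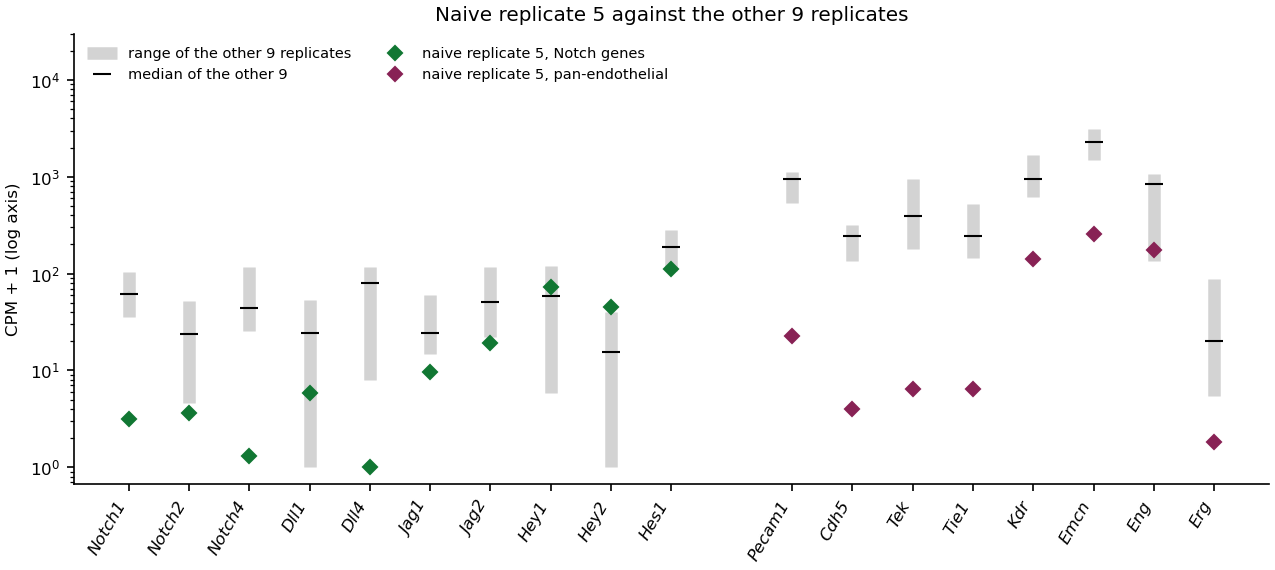
CPM + 1 on a log axis of the 10 Notch genes and 8 pan-endothelial markers, with naive replicate 5 as diamonds and the range and median of the other 9 replicates as grey bars and black lines. The diamonds of Notch1, Notch2, Notch4, Dll4, Jag1 and Jag2 lie below the grey bars, that of Hey2 lies above its bar, and 7 of the 8 pan-endothelial markers lie below theirs.

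No Notch gene passed the threshold between SCVS and naive. The quasi-likelihood test of edgeR, adjusted by Benjamini-Hochberg over 14815 genes, gave each of the 10 an adjusted p of 1.0, where the threshold was 0.1. The same test called 0.00% of all genes (0 of 14815), and the smallest adjusted p of any gene was 0.964. None of the 10 had an unadjusted p under 0.05, against 3.10% of all genes tested (460). At the same threshold DESeq2 called 114 genes, limma voom 3 and edgeR's likelihood ratio test 38, and none of the 10 was among them. Their smallest adjusted p in DESeq2 was 0.799. The log2 fold change was positive, that is higher in SCVS, for 5 of the 10 and negative for 5, with a median of -0.07 beside -0.03 over all genes tested, of which 7137 were higher and 7678 lower. For 8 of the 10 the log2 fold change was smaller than its own standard error (SE). No gene of the 10 had groups that did not overlap, against 0.628% of all genes tested.

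**Figure D2:**
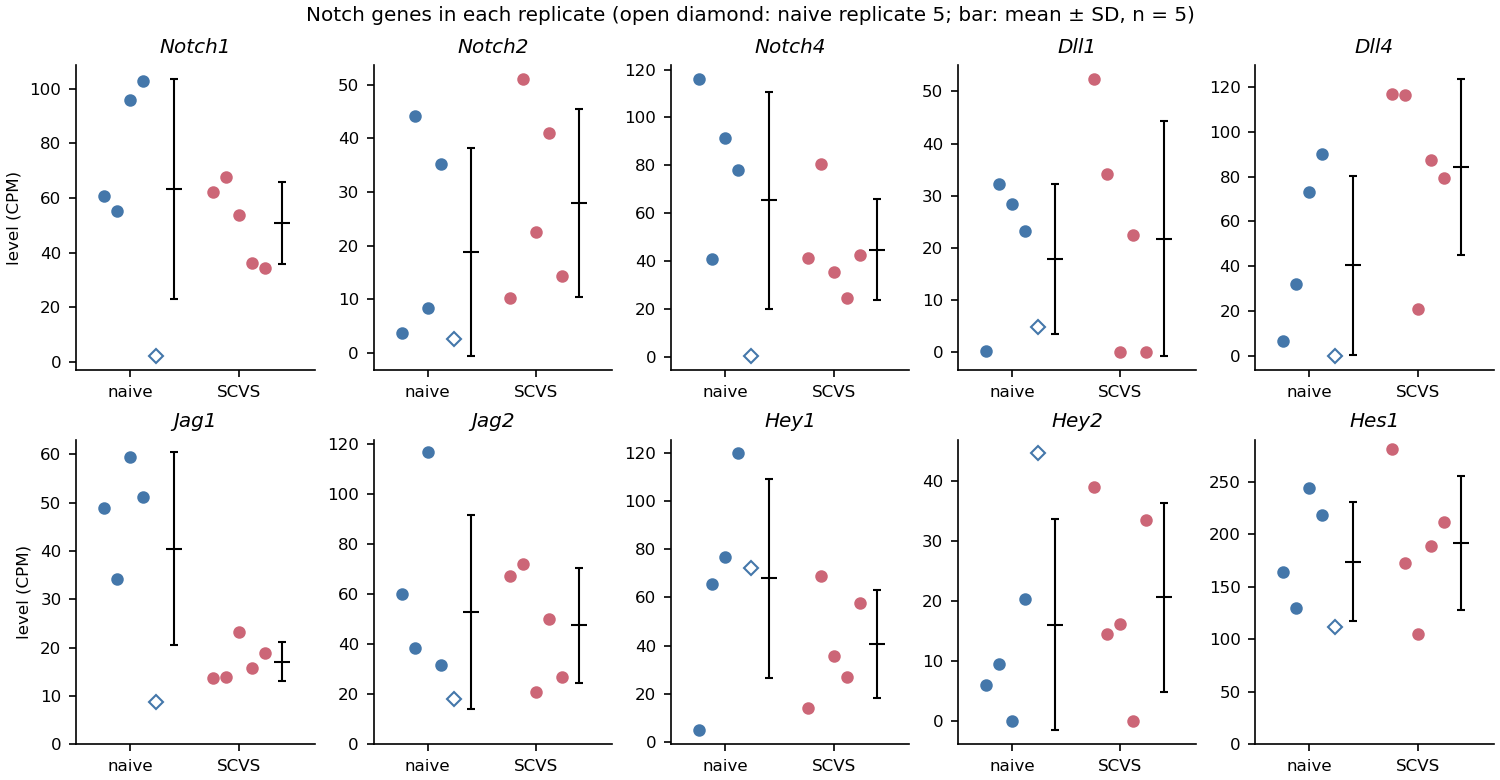
CPM of each of the 10 Notch genes in the 5 naive and the 5 SCVS replicates, with the mean and SD of each group (n = 5). The naive and SCVS points overlap in every panel, and naive replicate 5 is the lowest point of 6 genes.

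Among the receptors, Notch1 encodes the main Notch receptor of endothelium (chr2:26457902-26503822). Its level was 60.6, 55.1, 96.0, 103 and 2.18 CPM in naive replicates 1 to 5 and 62.1, 67.9, 53.9, 36.3 and 34.5 CPM in SCVS replicates 1 to 5. The SCVS values lay inside the naive range, and the means were 63.4 ± 40.1 CPM in naive and 50.9 ± 15.0 CPM in SCVS (SD, n = 5 each). The log2 fold change was -0.37 with an SE of 0.74, and without naive replicate 5 it was -0.68 with an SE of 0.43. Notch4 encodes a receptor that is largely restricted to endothelium (chr17:34564286-34588543). It was at 116, 41.0, 91.5, 78.1 and 0.30 CPM in naive and at 41.2, 80.3, 35.3, 24.6 and 42.6 CPM in SCVS. Without naive replicate 5, 3 of the 4 naive values were above 4 of the 5 SCVS values, with an overlap through naive replicate 2 and SCVS replicate 2. Its log2 fold change was -0.63 (SE 0.93) over all replicates and -0.94 (SE 0.50) without naive replicate 5.

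Notch2 encodes the more widely expressed receptor (chr3:98013538-98150367). It was at 3.65, 44.2, 8.37, 35.1 and 2.63 CPM in naive and at 10.3, 51.1, 22.6, 41.0 and 14.3 CPM in SCVS. Each group held 2 high and 3 lower replicates, and the ranges overlapped. The means were 18.8 ± 19.5 and 27.9 ± 17.6 CPM (SD, n = 5 each), and the log2 fold change of 0.53 was below its SE of 0.99. Without naive replicate 5 it was 0.26 with an SE of 0.96.

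Of the ligands, Jag1 had the largest change relative to its error among the 10 genes. Jag1 encodes Jagged1, which in endothelium signals to neighbouring endothelial cells and to mural cells (chr2:137081451-137116520). It was at 48.9, 34.2, 59.5, 51.2 and 8.70 CPM in naive and at 13.8, 13.9, 23.3, 15.7 and 18.8 CPM in SCVS. The first 4 naive replicates were all above the highest SCVS replicate, and naive replicate 5 was below the lowest. The means were 40.5 ± 19.99 CPM in naive and 17.1 ± 4.02 CPM in SCVS (SD, n = 5 each). Over all 10 replicates the log2 fold change was -1.28 with an SE of 0.71, and the unadjusted p was 0.0990 in edgeR.

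Whether the groups overlapped for Jag1 depended on naive replicate 5, and whether it passed the threshold without that replicate depended on the tool. Without it the naive mean was 48.5 ± 10.5 CPM (SD, n = 4), the log2 fold change was -1.53 with an SE of 0.64, and the groups no longer overlapped. That mean and the overlap without naive replicate 5 were chosen for description after seeing the data. Jag1 was then the 1 gene of the 10 without overlap, beside 0.550% of all genes that were lower in SCVS without overlap and 4.23% of all genes with an unadjusted p under 0.05, in a fit where its own unadjusted edgeR p was 0.0359. Its adjusted p without naive replicate 5 was 1.0 in edgeR, 0.834 in limma voom and 0.071 in DESeq2, so that only DESeq2 of these 3 tools put it past the threshold. DESeq2 called 0.289% of all genes lower in SCVS in that fit. Leaving out naive replicate 1 as well gave a log2 fold change of -1.51 and an unadjusted edgeR p of 0.062.

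Counts were also set against those of the endothelial gene Pecam1, which was at 2.27% of the median of the others in naive replicate 5 so that a given count made a larger ratio there. Jag1 had 36.7 to 53.9 counts per 1000 Pecam1 counts in naive replicates 1 to 4, 404 in naive replicate 5 and 13.97 to 43.4 in SCVS. On this scale naive replicate 5 was the highest of the 10 for Jag1 and for 6 more Notch genes, by up to 36.4 times the next replicate for Hey2, and SCVS replicate 3 lay inside the range of the first 4 naive replicates. Mural markers, which mark cells that can also make Jag1, summed to 803 to 7688 CPM in naive and 431 to 5924 CPM in SCVS, and 7 of 8 had a negative log2 fold change, 1 of them (Acta2) with an unadjusted p of 0.0146 and an adjusted p of 0.964 in edgeR. Naive replicate 3 had the lowest mural sum of the naive replicates, 803 CPM, and the highest Jag1. In naive replicate 5 and SCVS replicate 2 the single marker Rgs5 made 5057 and 5812 CPM of mural sums of 5078 and 5924 CPM. In the DESeq2 fit without naive replicate 5 that called Jag1, Acta2 (adjusted p = 0.0123) and the fibroblast markers Col1a1 (0.0451) and Col1a2 (0.0571) were called lower in SCVS too. Of the 5 fibroblast markers tested over all replicates, 4 had a negative log2 fold change, with a median of -2.69. Their list summed to 50.9 CPM in naive replicate 5, 423 to 1318 CPM in the other naive replicates and 18.5 to 1505 CPM in SCVS, and Col1a2, like Jag1, did not overlap between the groups without naive replicate 5. The highest fibroblast sum was in SCVS replicate 5, whose Jag1 was at 18.8 CPM. Dcn made 1159 CPM of that sum, and Col1a2 was at 43.8 CPM there, below the 60.4 to 332 CPM of naive replicates 1 to 4. Myh11, a defining marker of smooth muscle, was at 0 counts in 6 of the 10 replicates. The part of mural cells and fibroblasts in the level of Jag1 was not tested.

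**Figure D3:**
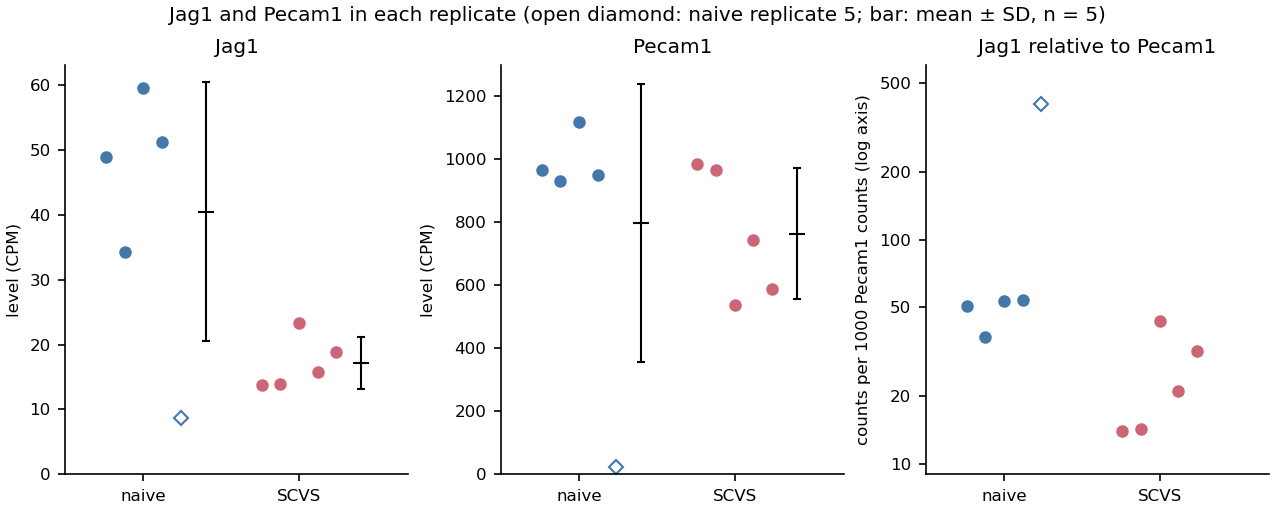
Level of Jag1 and Pecam1 in CPM, and Jag1 counts per 1000 Pecam1 counts on a log axis, in each replicate; bars are the mean and SD (n = 5), and the open diamond is naive replicate 5. The first 4 naive replicates lie at 34.2 to 59.5 CPM of Jag1 and SCVS at 13.8 to 23.3 CPM, while naive replicate 5 is lowest in CPM and highest relative to Pecam1.

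Dll4, the ligand of arterial and tip endothelial cells, was the ligand with the largest positive value (chr2:119325784-119335666). It was at 6.91, 31.9, 73.3, 89.9 and 0 CPM in naive and at 117, 116, 21.2, 87.6 and 79.5 CPM in SCVS. The values spanned 0 to 89.9 CPM in naive and 21.2 to 117 CPM in SCVS, and the ranges overlapped over most of their width. The means were 40.4 ± 39.9 and 84.3 ± 39.1 CPM (SD, n = 5 each). The log2 fold change was 1.01 with an SE of 1.17, and it was 0.70 with an SE of 0.72 without naive replicate 5. Per 1000 Pecam1 counts, Dll4 had 7.15 to 94.7 counts in naive replicates 1 to 4 and 0 in naive replicate 5. SCVS replicate 3 had 39.5 and the other SCVS replicates 118 to 135, so the groups overlapped through SCVS replicate 3.

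Dll1, a ligand with roles in arterial endothelium, was the least evenly detected of the 10 genes (chr17:15367354-15376932). It had 1, 412, 397, 316 and 65 counts in naive and 738, 415, 0, 296 and 0 counts in SCVS. It was thus above 3 counts in 7 of the 10 replicates, and 2 SCVS replicates and 1 naive replicate were below. Its log2 fold change was 0.22 with an SE of 1.80, and -0.014 with an SE of 1.93 without naive replicate 5. Jag2, the other Jagged ligand (chr12:112907803-112929812), was at 60.1, 38.4, 117, 31.5 and 18.0 CPM in naive and at 67.2, 71.9, 21.0, 50.1 and 26.9 CPM in SCVS. Both groups spanned low and high values, and the log2 fold change was -0.24 with an SE of 0.62, and -0.46 with an SE of 0.60 without naive replicate 5.

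Hes1, a repressor that many cell types use as a Notch target, was the gene with the smallest span over all 10 replicates (chr16:30065357-30067796). It was at 164, 130.1, 244, 218 and 111 CPM in naive and at 281, 173, 105, 189 and 211 CPM in SCVS. Its highest value was 2.68 times its lowest over all 10 replicates, against 6.84 for Jag1, 6.48 for Jag2 and 47.3 for Notch1. The span of Notch1 rested on naive replicate 5, without which it was 2.99 times, and within SCVS the coefficients of variation of Jag1 (23.5%) and Notch1 (29.5%) were below the 33.3% of Hes1. The log2 fold change was 0.10 with an SE of 0.35, the smallest SE of the 10, and -0.022 with an SE of 0.34 without naive replicate 5. The means were 173.6 ± 56.6 CPM in naive and 191.8 ± 63.8 CPM in SCVS (SD, n = 5 each).

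Hey1, a target of endothelial Notch (chr3:8663359-8667038), was at 4.80, 65.6, 76.9, 119.8 and 72.2 CPM in naive and at 14.1, 68.9, 35.6, 27.0 and 57.7 CPM in SCVS. The SCVS values lay inside the naive range, and the lowest value of all was naive replicate 1. The log2 fold change was -0.79 with an SE of 0.72, and -0.75 with an SE of 0.79 without naive replicate 5. Without naive replicate 1 it was -1.08 with an SE of 0.53. In that fit the unadjusted edgeR p was 0.0708 and the adjusted p 0.9997. Hey2, a second target linked to arterial fate (chr10:30832359-30842783), was at 5.95, 9.47, 0, 20.3 and 44.6 CPM in naive and at 39.0, 14.5, 16.2, 0 and 33.5 CPM in SCVS. Each group had 1 replicate at 0 counts, and the highest value was in naive replicate 5. The log2 fold change was 0.32 (SE 1.66), and 1.21 (SE 1.86) without naive replicate 5.

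**Figure D4:**
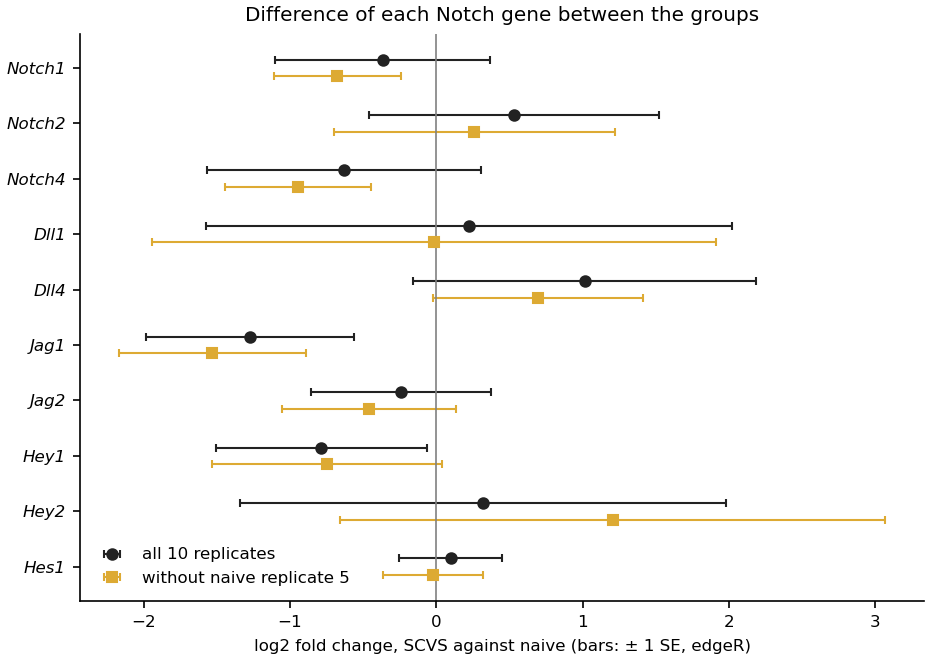
log2 fold change of the 10 Notch genes, SCVS against naive, with the SE from edgeR, over all 10 replicates and without naive replicate 5. Jag1 lies at -1.28 and -1.53, and the values of the other 9 genes reach at most 1.01 over all replicates.

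Per length, the order of the genes differed from that of the CPM. Over the longest coding transcript in the mm9 annotation (GENCODE M1), Hes1 was highest with a median of 123 CPM per kilobase over the 10 replicates. Hey1 followed with 28.0 and Dll4 with 20.4 CPM per kilobase, then Jag2 with 10.9. Dll1, Notch4, Notch1 and Hey2 were next with 6.37, 6.35, 6.10 and 6.02 CPM per kilobase, and Jag1 (3.75) and Notch2 (1.76) were lowest. By means, in naive Hes1 (118 ± 38.6 CPM per kilobase) stood above Hey1 (30.8 ± 18.7, SD, n = 5 each) by more than the larger SD, and from Hey1 downwards each gene differed from the next by less than the larger SD. In SCVS Hes1 (131 ± 43.4 CPM per kilobase) stood above Dll4 (22.5 ± 10.4) in the same way, and Notch1 (5.37 ± 1.58) above Jag1 (3.05 ± 0.716, SD, n = 5 each), while the other neighbours differed by less. The levels per length were not tested against each other.

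The reads of some of these genes can be shared with other loci. By the RefSeq annotation of GRCm38.p6, 1 or more other annotated genes overlap Notch1 (0610009E02Rik and Mir6996), Notch2, Dll4, Jag2, Hey1 and Hey2, and none overlaps Notch4, Dll1, Jag1 or Hes1. Since the sources do not say whether strand was used in counting, reads that fall in such an overlap may belong to either gene.

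The other genes of the pathway were described through 7 lists grouped by role, with 67 genes, of which 60 were expressed highly enough to be tested. Of these, 30 were higher in SCVS and 30 lower, with a median log2 fold change of -0.01 beside -0.03 over all genes tested. None passed the threshold in edgeR, and 2 (Cxcr4 and Neurl1b, both higher) had an unadjusted p under 0.05. Without its SCVS counts neither gene would have been tested, so these p values are not taken as support for a difference. The list of ligand ubiquitin ligases, enzymes that the ligands need for their activity, had 3 higher and 3 lower. Mib1, its best known member, was at 100.05 ± 46.3 CPM in naive and 71.2 ± 28.4 CPM in SCVS (SD, n = 5 each) with a log2 fold change of -0.54 (SE 0.46). Neurl1b had 1, 0, 1, 25 and 1 counts in naive and 194, 294, 104, 14 and 67 counts in SCVS, and naive replicate 4 was above SCVS replicate 4. Its log2 fold change was 4.60 with an SE of 1.86, and its unadjusted p was 0.0297 and its adjusted p 1.0 in edgeR.

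Of the receptors and ligands outside the 10, 2 of 4 were tested. Notch3, the receptor of mural cells, had 1269, 88, 290, 140 and 0 counts in naive and 2, 190, 6, 139 and 275 counts in SCVS, with a log2 fold change of -1.65 (SE 1.71). Dll3 had 68 counts in naive replicate 1 and at most 7 elsewhere, so that it was not tested. Among genes for receptor glycosylation and cleavage, which set how a receptor responds to its ligands, 6 were higher and 9 lower. The Fringe enzymes Lfng, Mfng and Rfng had log2 fold changes of 0.08 (SE 1.67), -0.05 (SE 0.59) and 0.76 (SE 1.17). Psen2, a gamma-secretase subunit, had the smallest p of that list, with a log2 fold change of -2.58 (SE 1.48).

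In the nuclear complex, 10 of 14 genes were higher and 4 lower, with a median log2 fold change of 0.23. Rbpj, the DNA-binding partner of all Notch receptors, had 12, 34, 51, 213 and 87 counts in naive and 0, 514, 19, 326 and 255 counts in SCVS. Its log2 fold change was 1.60 with an equal SE of 1.60. Maml1, a Mastermind coactivator, had a log2 fold change of -0.49 (SE 1.58). Ep300, a histone acetyltransferase, had the smallest p of that list with a log2 fold change of 1.13 (SE 0.58). None of these values separated the groups.

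Genes that limit the signal, the list of receptor turnover and inhibitors, split into 5 higher and 5 lower. Numb, an adaptor that lowers Notch at the membrane, had the smallest p of that list, with a log2 fold change of 0.82 (SE 0.41), and 0.61 without naive replicate 5. Nrarp, a target that feeds back on the complex, had 8, 0, 7, 236 and 0 counts in naive and 332, 209, 9, 743 and 111 counts in SCVS. The groups overlapped for Nrarp, and its log2 fold change was 2.54 with an SE of 1.95. In the list of other Hes and Hey genes, 1 of 4 tested was higher and 3 lower. The higher 1 was Bhlhe40, which like Bhlhe41 is in the list but is neither a Hes nor a Hey gene. The tested Hes and Hey genes of the list, Heyl and Hes6, were lower, Hes6 with a log2 fold change of -0.66 (SE 0.83). Heyl had 543, 15, 410, 224 and 73 counts in naive and 0, 0, 0, 295 and 37 counts in SCVS. It was at 0 in 3 SCVS replicates and in no naive replicate, with a log2 fold change of -2.02 (SE 2.07). Hes5 was read in 3 replicates only and was not tested, and Bhlhe40, which had the smallest p of that list, had a log2 fold change of 0.65 (SE 0.49).

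Arterial endothelial genes listed as following Notch had 4 higher and 5 lower of 9 tested, with a median of -0.18. Cxcr4, a chemokine receptor of arterial endothelium and of leukocytes, had 0, 1, 0, 0 and 0 counts in naive and 31, 1, 0, 13 and 241 counts in SCVS. Its mean in SCVS was at least 23.2-fold higher than 3 counts per naive replicate would give, with an unadjusted edgeR p of 0.0094 and an adjusted p of 0.964. SCVS replicate 5 carried that mean, and without it the bound was 3.45-fold. Cxcr4 passed the filter for testing only through SCVS replicates 1, 4 and 5, so its edgeR p is not taken as support for a difference. Ptprc (CD45), which the sort selected against, was read in the same 3 SCVS replicates, 1, 4 and 5, with 27, 113 and 404 counts, and had at most 1 count in every other replicate. The whole leukocyte list did not follow Cxcr4. It summed to 7.58 to 308 CPM in naive and 15.0 to 793 CPM in SCVS, with 61.3 CPM and 2 of 7 markers above 3 counts in SCVS replicate 5, where Cd68, Adgre1, Cd3e and Cd79a were at 0 and Cxcr4 was highest, and 241 CPM in SCVS replicate 3, where Cxcr4 was at 0. The part of leukocytes in the level of Cxcr4 was not tested.

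**Figure D5:**
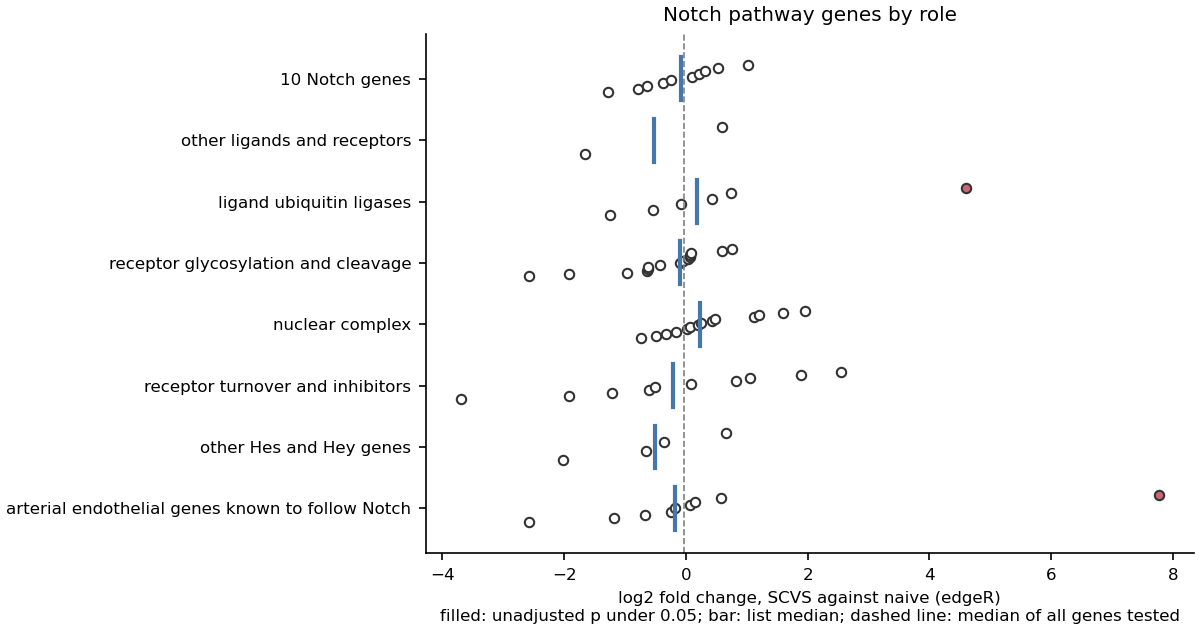
log2 fold change (SCVS against naive, edgeR) of the 10 Notch genes and of the tested genes of 7 pathway lists; filled points have an unadjusted p under 0.05, bars are list medians and the dashed line is the median of all genes tested. The medians lie between -0.53 and 0.23, and the 2 filled points are Neurl1b at 4.60 and Cxcr4 at 7.77.

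Hes1 had the highest mean CPM of the 10 genes, and the genes whose log2(CPM + 1) was most like it over the 10 replicates were Akap7, Abi3 and Ppm1j. Their Spearman's rho with Hes1 was 0.976, 0.927 and 0.924, the highest of 9974 genes compared, with Pearson's r of 0.934, 0.847 and 0.900. These values describe 10 points that share library depth between the genes, and the best of so many genes is high by the choice itself.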

How the data were processed

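RNA of sorted meningeal LECs was amplified and sequenced by the authors, who deposited raw counts per gene and replicate, not normalized and not filtered. The submitters' processing notes name cutadapt 1.9.1, HISAT2 2.0.1 and HTSeq 0.6.1. The paper names the mm9 genome and the notes name GRCm38. Of the 55401 gene identifiers, 22812 are not in the mm9 annotation GENCODE M1, so coordinates are those of RefSeq on GRCm38.p6, 1-based. The use of strand in counting is not given in the sources used here.

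Counts were divided by the replicate's total (9984743 to 14094155) and scaled to 1000000 to give CPM, and the limit of 3 counts covers counting error only. The 14815 genes that exceeded 5 counts in 3 or more of the 10 replicates were tested with edgeR's quasi-likelihood test (edgeR 4.0.16, R 4.3.3, TMM), with Benjamini-Hochberg adjustment over all of them and a threshold of 0.1. The SE is the absolute log2 fold change divided by the square root of F. DESeq2 1.42.0, limma 3.58.1 (voom with quality weights), edgeR's likelihood ratio test, other scalings and filters, a replicate block and leaving out replicates were alternatives. Fits without naive replicate 5 in DESeq2 and voom, and without naive replicates 1 and 5, were chosen after seeing the data. So were the Pecam1 scale, the means, spans and group overlap without naive replicate 5, and the bound for Cxcr4 without SCVS replicate 5. The Notch genes and all lists were chosen with earlier results of these data known. All 10 Notch genes were named, as were 11 pathway genes, each listed gene with an unadjusted p under 0.05, the gene with the smallest p of each list, and the 3 genes most like the Notch gene of highest CPM. Replicates are pools of animals by the labels, and which cohort each came from is not given in the sources used here. Python 3.11.15, NumPy 2.4.6, SciPy 1.17.1, pandas 2.3.3 and Matplotlib 3.10.9 were used.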

Additional observations from a re-analysis of the deposited data

Results flagged for a closer look

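Of the 62 groups of 5 replicates checked, 13 held a highest or lowest replicate that stood apart from the nearest other one by more than 0.71 of the range of the group. For normally distributed values about 1 in 20 groups would do so. That rate does not apply to skewed counts with many zeros. In naive Dll3 and Hes5, for example, 1 replicate with counts gives a gap of the whole range. None of the 10 Notch genes named in the report was among the 13. In naive, Notch3 was at 122 CPM and Dll3 at 6.52 CPM in replicate 1, the replicate without Prox1 counts. Maml1 was at 52.9 CPM, Nrarp at 17.4 CPM and Neurl1b at 1.84 CPM in naive replicate 4, above the other naive replicates. Naive replicate 5 stood apart with Hes5 at 12.7 CPM as the highest and Pecam1 at 21.5 CPM as the lowest. The single count of Cxcr4 in naive, in replicate 2, equals 0.0783 CPM. In SCVS, Hes5 was at 15.3 CPM in replicate 1, Heyl at 22.3 CPM in replicate 4, and Maml1 at 36.8 CPM, Cxcr4 at 24.1 CPM and Ptprc at 40.5 CPM in replicate 5.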

How the results depend on the processing

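Jag1, Dll4 and Hey1 kept their direction in all 21 alternatives (3 of them chosen after seeing the data), with log2 fold changes of -1.56 to -1.09, 0.34 to 2.02 and -1.13 to -0.45. Jag1 passed the threshold in 1 of the 21, DESeq2 without naive replicate 5 (-1.51, adjusted p = 0.071), and its adjusted p was 0.514 or higher in the other 20. Among the other 7 genes the sign turned in at least 1 alternative. With voom, Notch4 (0.034), Dll1 (-1.89) and Jag2 (0.0088) turned, and with a replicate block Notch1 (0.11), Dll1 (-1.51) and Jag2 (0.0092). Leaving out 1 replicate moved Dll1 from -0.42 to 0.54, Jag2 from -0.46 to 0.28, Hey2 from -0.015 to 1.21 and Hes1 from -0.072 to 0.26. Without naive replicate 5, Hes1 was at -0.0014 in DESeq2 and -0.017 in voom, and Dll1 at -2.08 in voom. Without naive replicates 1 and 5, Notch2 was at -0.090, Dll1 at -0.42 and Hes1 at -0.066. The number of the 10 genes that were higher in SCVS was 5, 6 in voom and with the replicate block, and 2 to 5 when 1 replicate was left out (3 without naive replicate 5 and 2 without SCVS replicate 1), 3 in voom without naive replicate 5 and 2 without naive replicates 1 and 5. The count of all genes past the threshold was 0 in edgeR's quasi-likelihood test, also in each fit with 1 replicate left out and with the replicate block (0 to 0 calls), 114 in DESeq2, 3 in voom, 38 in edgeR's likelihood ratio test, 214 in DESeq2 without naive replicate 5 and 2 in voom without it. The cause of these differences was not tested. Same-numbered replicates were not taken as pairs in the main fit, because they are pools of different animals and the study's methods use no block. Deviations of same-numbered replicates from their group means correlated by -0.0169 to 0.149, and were above 0.1 for 1 of 5 numbers. Yet 4 of 5 numbers correlated best with their own number, so a batch shared by number remains possible and was not tested. With totals near those given, a gene at 0 counts in 1 replicate is only below about 0.3 CPM there.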
